A study of Mus musculus with 2 samples.

Results

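Type I interferon-stimulated genes are transcribed in most cells that receive interferon-alpha or interferon-beta, and 10 of them, called the members below, were followed here: Isg15, Ifit1, Ifit2, Ifit3, Rsad2, Irf7, Oasl2, Usp18, Zbp1 and Cmpk2. They were taken by symbol from the 55357 genes of the deposited count tables, and all 10 were present. They were read in 2 single-cell libraries of tumours of MC38, a colon carcinoma line of the mouse. The first library came from SPP1fl/fl-Lyz2-icre mice, in which floxed Spp1 alleles are joined by a Lyz2-driven Cre that acts in myeloid cells (Lyz2-icre library). The second came from SPP1fl/fl mice, which carry the same floxed alleles without Cre (floxed control library). Live CD45+ 7-AAD- cells had been sorted, so leukocytes of the tumour were the population sampled. Ages, sexes and the number of mice were not given, but each library contained Xist-positive as well as Y-linked-positive cells and therefore pooled the sexes.

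With 1 library per genotype no difference between genotypes could be tested. Intervals below are 95% and cover the counting of UMIs (unique molecular identifiers, 1 per captured RNA molecule) or of cells, not the spread between mice. Where the UMIs of a gene sit in few cells, as is the case below, they are too narrow. Levels are in CPM, UMIs relative to all UMIs of the cell gate, a unit without gene length since each transcript is tagged once at its 3′ end. Ratios are Lyz2-icre over floxed control. A gene was called where the ratio passed 1.5-fold after adding 5 CPM to both libraries and its interval was clear of 1. Calls were counted among genes that reached 10 CPM in the higher library.

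Type I interferons, the interferon-alpha family and interferon-beta, act through 1 shared receptor made of IFNAR1 and IFNAR2. The kinases JAK1 and TYK2 then pass the signal on, and a complex of transcription factors that contains IRF9 binds interferon-stimulated response elements in the promoters of target genes. In tumours the pathway is known for priming of dendritic cells and for recruitment of T cells through chemokines such as CXCL10. The products of the 10 members fall into 3 groups. Ifit1, Ifit2 and Ifit3 encode antiviral tetratricopeptide-repeat proteins, and Rsad2 (viperin) with its neighbour Cmpk2, a mitochondrial nucleotide kinase, acts on nucleotides. Isg15 encodes a ubiquitin-like protein, Usp18 the protease that removes it and that also restrains the receptor. Zbp1 encodes a sensor of Z-form nucleic acid, Oasl2 an oligoadenylate-synthetase-like protein, and Irf7 the transcription factor that drives interferon-alpha genes.

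On mouse build mm10 (GENCODE vM21) 5 of the members lay in 2 neighbourhoods. Ifit2, Ifit3 and Ifit1 stood in a row on chromosome 19, with Ifit2 at 34550694 to 34576419, Ifit3 at 34583531 to 34588731 and Ifit1 at 34640871 to 34650009, all on the plus strand. Rsad2 (chromosome 12, 26442746 to 26456452, minus strand) and Cmpk2 (26469204 to 26479837, plus strand) lay head to head. The remaining members were on chromosomes 2 (Zbp1), 4 (Isg15), 5 (Oasl2), 6 (Usp18) and 7 (Irf7). Promoter windows of RefSeq (GRCm38.p6, 250 bases before to 50 after the start) were available for 8 of 10 members, all but Usp18 and Zbp1. The core of the response element, GAAANNGAAA read on both strands, was present in the windows of 4 of these 8 (Isg15, Rsad2, Ifit3 and Ifit1), against 3.99% of the 27025 genes with a window. Of the 39 other interferon-stimulated genes of the comparison list below that had a window, 21 held it. The 4 stretches are shown because they carry the motif through which the receptor's signal is known to reach its target genes. Each runs from 170 to 21 bases before the start, 5′ to 3′ on the gene's strand, with the matches in capitals (the 3 matches of Isg15 overlap in 1 run). They cover chr4:156200839-156200988 (minus), chr12:26456473-26456622 (minus), chr19:34583359-34583508 (plus) and chr19:34640719-34640868 (plus).
Isg15: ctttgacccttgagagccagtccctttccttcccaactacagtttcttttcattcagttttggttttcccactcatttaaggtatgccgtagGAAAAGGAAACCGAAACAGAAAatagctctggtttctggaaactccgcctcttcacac
Rsad2: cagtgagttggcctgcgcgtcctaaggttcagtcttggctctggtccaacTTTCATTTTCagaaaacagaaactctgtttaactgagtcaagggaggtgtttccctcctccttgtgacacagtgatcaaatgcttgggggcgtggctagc
Ifit3: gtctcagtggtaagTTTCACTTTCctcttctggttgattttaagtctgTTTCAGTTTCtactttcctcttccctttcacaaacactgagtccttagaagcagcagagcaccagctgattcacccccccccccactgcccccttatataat
Ifit1: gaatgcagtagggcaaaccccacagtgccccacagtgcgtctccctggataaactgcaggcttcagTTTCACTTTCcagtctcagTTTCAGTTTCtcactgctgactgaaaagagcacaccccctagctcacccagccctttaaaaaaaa
The matches began 78, 72 and 66 bases before the start of Isg15, 120 before that of Rsad2, 156 and 122 before that of Ifit3, and 104 and 85 before that of Ifit1. A match is a description of the letters in the window. No match was found in the windows of Irf7, Oasl2, Cmpk2 and Ifit2, the last with 2 windows.

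After filtering, 13915 Lyz2-icre cells and 8724 floxed control cells were used, with 98256831 and 88047097 UMIs and medians of 6374 and 9380 UMIs per cell. The members took 39319 UMIs in the Lyz2-icre library and 35130 in the floxed control library, or 400.2 and 399 CPM over all cells. Cells were assigned to 15 marker gates, and cells passing more than 1 gate (6.63% in the Lyz2-icre library and 8.86% in the floxed control library) were left out as mixed. The libraries shared 43 barcodes. Sex could not be read in 3696 Lyz2-icre and 1725 floxed control cells, which are left out of every value given by sex. The targeted gene stood at 5.33 CPM in macrophage-gated Lyz2-icre cells and at 693 CPM in macrophage-gated floxed control cells, in the direction the labels give; which exons were floxed is not given, and the 3′ tag may also read RNA of a deleted copy.

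The members were highest in neutrophils and monocytes in both libraries. In neutrophil-gated cells (S100a8, S100a9, Csf3r) they summed to 3063 CPM (2670 to 3496) in 65 Lyz2-icre cells and to 2103 CPM (1977 to 2234) in 175 floxed control cells. In monocyte-gated cells (Ly6c2, Plac8, Ccr2) the sums were 1270 CPM (1214 to 1327) in 376 Lyz2-icre cells and 1029 CPM (976 to 1084) in 189 floxed control cells. These were the only gates above 1000 CPM in either library. The monocyte gate required a UMI of Ly6c2, which interferon can also induce. How far this choice raised the members in that gate was not tested. The fibroblast or tumour gate, which passed the CD45 sort with collagen or keratin transcripts, came next in the floxed control library, with 481 CPM in 243 Lyz2-icre cells and 561 CPM in 167 floxed control cells.

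Macrophage-gated cells (C1qa, Apoe, Adgre1 and others) stood in the middle, at 386 CPM (381 to 390) in 10134 Lyz2-icre cells and 389 CPM (384 to 394) in 5623 floxed control cells. By their number they held 72.9% of all member UMIs in the Lyz2-icre library and 65.1% in the floxed control library. Migratory dendritic cells followed at 379 and 363 CPM in Lyz2-icre and floxed control cells, regulatory T cells at 367 and 297 CPM, CD4 T cells at 306 and 257 CPM, and plasmacytoid dendritic cells, the classical producers of interferon-alpha, at 321 and 365 CPM in only 16 and 19 cells. Within the Lyz2-icre library the intervals of these 4 gates overlapped one another, and within the floxed control library they did except between migratory dendritic and CD4 T cells. NK cells (180 CPM in Lyz2-icre and 183 CPM in floxed control cells) and CD8 T cells (161 and 190 CPM) had the lowest sums among gates of at least 50 cells, with overlapping intervals in each library. None of the gated types is known to lack an interferon response, so no gate served as a measure of free RNA for the members. The macrophage transcripts C1qa, C1qb and C1qc, which gave 12882 and 12568 CPM in macrophage-gated cells of the Lyz2-icre and floxed control libraries, were present at 619 and 668 CPM in cDC2-gated cells and at 469 and 524 CPM in CD8 T-gated cells.

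**Figure D1:**
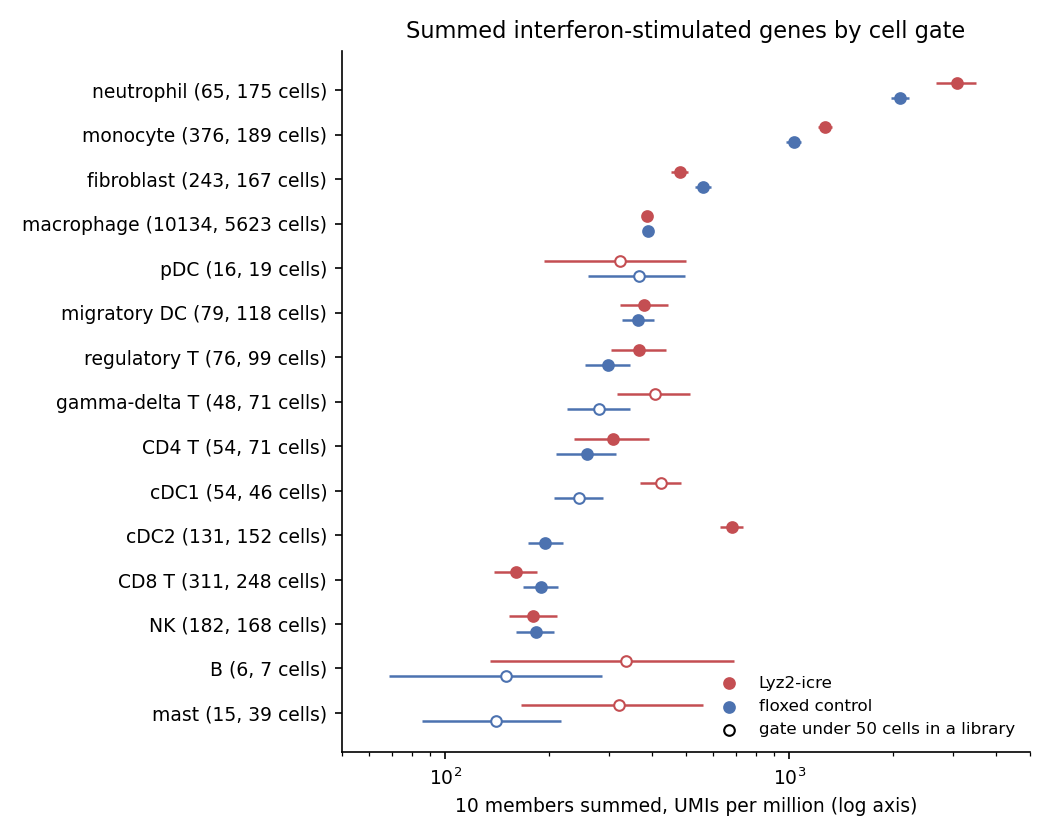
Summed CPM of the 10 members in each cell gate on a log axis, with Lyz2-icre (red) above floxed control (blue), 95% counting intervals as lines, and cell numbers beside each gate name in the same order; open circles mark gates with under 50 cells in a library. Neutrophil and monocyte gates lie above 1000 CPM in both libraries, the macrophage values of 386 and 389 CPM coincide, and the cDC2 values of 680 and 195 CPM stand apart.

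Single members did not share 1 order of cell types over the gates of at least 50 cells in both libraries. Isg15 was highest in neutrophils, at 1301 CPM in Lyz2-icre and 981 CPM in floxed control cells, and lowest in CD8 T cells, at 29.4 and 47.9 CPM. Rsad2 was also highest in neutrophils, at 699 CPM in Lyz2-icre and 419 CPM in floxed control cells, and so was Oasl2, at 476 and 268 CPM. Those 3 genes made up most of the neutrophil sum. Irf7 was instead highest in monocytes, at 193 CPM in Lyz2-icre and 154 CPM in floxed control cells, and Zbp1 was too, at 294 and 207 CPM. Among these gates Zbp1 was next highest in regulatory T cells (129 CPM in Lyz2-icre and 135 CPM in floxed control cells), and it was not under 42.5 CPM in any of them. Cmpk2 was the sparsest member, at 7.04 CPM in Lyz2-icre and 7.44 CPM in floxed control macrophages, and among the same gates had no UMI in Lyz2-icre migratory dendritic and CD4 T cells or in floxed control regulatory T cells.

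**Figure D2:**
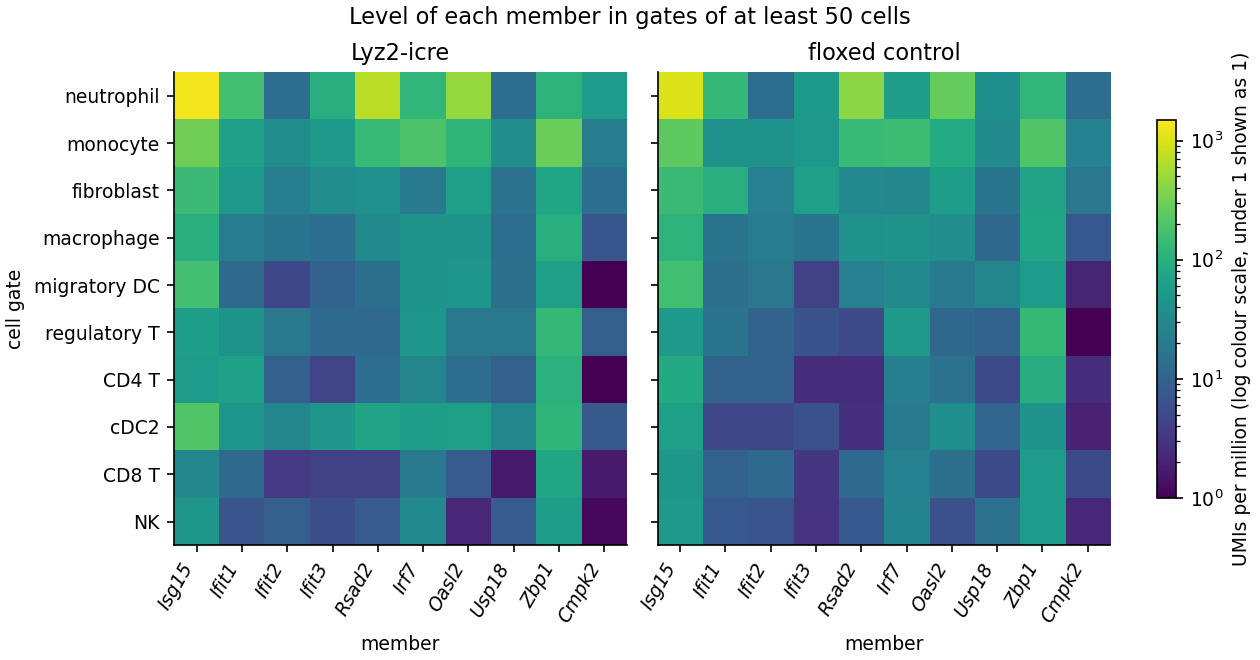
CPM of each member (columns) in each gate of at least 50 cells in both libraries (rows, ordered by the floxed control sum), Lyz2-icre on the left and floxed control on the right, on a log colour scale. Isg15, Rsad2 and Oasl2 are brightest in neutrophils (1301, 699 and 476 CPM in Lyz2-icre cells), while Zbp1 stays bright in the lymphoid rows.

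The first comparison asked whether macrophages without Spp1 differed in their interferon-stimulated genes. The sum of the 10 members was the same within counting error, with a ratio of 0.993 (0.976 to 1.01). Of the 10 members 9 reached 10 CPM in the higher library, and 0 of these 9 were called; over all 7909 genes at that level 0.367% were called higher and 0.923% lower. The median log2 ratio of the 9 was -0.02, beside -0.02 over all genes. Cmpk2, the member under 10 CPM, had a ratio of 0.947 (0.832 to 1.08).

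Within that sum the members differed in both directions by small amounts. Rsad2 stood at 32.0 CPM (30.7 to 33.3) in Lyz2-icre macrophages and 43.3 CPM (41.6 to 45.0) in floxed control macrophages, a ratio of 0.738 (0.698 to 0.781). Ifit2 was at 16.9 CPM in Lyz2-icre and 22.3 CPM in floxed control macrophages (0.757, 0.700 to 0.819), and Ifit3 at 14.6 and 17.1 CPM (0.854, 0.783 to 0.932). Their chromosomal neighbour Ifit1 went the other way, with 21.7 CPM in Lyz2-icre and 16.5 CPM in floxed control macrophages (1.32, 1.22 to 1.43). The 3 neighbouring Ifit genes thus did not differ in 1 direction. Ifit3 has a near copy, Ifit3b, and 27 of the 411 windows of 90 bases in its last 500 bases also occur there, so part of its reads could not be assigned to 1 of the pair.

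In the ubiquitin-like pair, Isg15 was at 96.6 CPM (94.4 to 98.9) in Lyz2-icre and 114 CPM (112 to 117) in floxed control macrophages (0.844, 0.816 to 0.873). Its protease Usp18 was at 14.0 and 11.8 CPM (1.19, 1.08 to 1.31), in the opposite direction. The nucleic acid sensor Zbp1 was at 97.0 CPM (94.8 to 99.3) in Lyz2-icre and 75.4 CPM (73.2 to 77.6) in floxed control macrophages, with a ratio of 1.29 (1.24 to 1.34), second to that of Ifit1. Oasl2 was at 42.2 and 35.8 CPM (1.18, 1.12 to 1.249). Irf7, the amplifier of the pathway, was at 43.9 CPM in Lyz2-icre and 44.6 CPM in floxed control macrophages (0.982, 0.933 to 1.03), with both intervals overlapping. Irf7 and Ifit3 lay on different sides of 1 in cells of the 2 sexes (Irf7 0.865 in female and 1.28 in male cells, Ifit3 0.668 and 1.245); Cmpk2 also did, at 0.879 and 1.08.

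**Figure D3:**
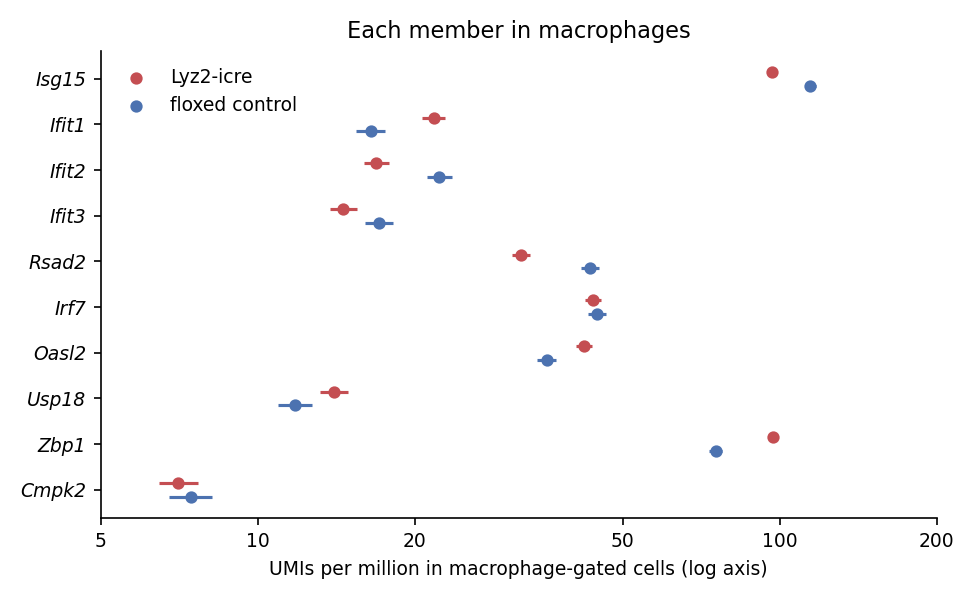
CPM of each member in macrophage-gated cells on a log axis, Lyz2-icre (red) above floxed control (blue), with 95% counting intervals as lines where wider than the point. Isg15, Ifit2, Ifit3 and Rsad2 lie lower in Lyz2-icre cells (Rsad2 32.0 against 43.3 CPM) and Ifit1, Oasl2, Usp18 and Zbp1 higher (Zbp1 97.0 against 75.4 CPM).

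Few macrophages had UMIs of several members. With every cell thinned to 2000 UMIs, 65.8% of 9159 Lyz2-icre and 67.1% of 5288 floxed control macrophages had a UMI of none of the 10 members, which at this depth does not show that they lack the transcripts, and another 23.2% and 22.4% had a UMI of 1. At least 4 of the 10 were detected in 231 Lyz2-icre cells, or 2.52% (2.21 to 2.86), and in 141 floxed control cells, or 2.67% (2.25 to 3.14), a ratio of 0.946 (0.764 to 1.18). The shares overlapped, so no difference between the libraries was detectable at this number of cells. The share depends on the depth at which cells are read: it was 1.2% and 1.35% at 1000 UMIs, 5.32% and 4.72% at 4000 UMIs, and 9.27% and 11.5% without thinning, in Lyz2-icre and floxed control cells.

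These few cells held 34.6% of the member UMIs of Lyz2-icre macrophages and 39.4% of those of floxed control macrophages, so most member UMIs lay in the remaining cells, at 258 and 246 CPM. The 10% of cells with most member UMIs held 64.4% in the Lyz2-icre library and 67.0% in the floxed control library. Single members differed widely in how far they were concentrated there, which in part follows from their use in choosing the cells. The cells with 4 or more members held 73.7% and 72.4% of Cmpk2 UMIs and 72.7% and 78.7% of Ifit3 UMIs, but 13.5% and 15.5% of Zbp1 UMIs and 22.4% and 25.2% of Oasl2 UMIs, in Lyz2-icre and floxed control macrophages.

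**Figure D4:**
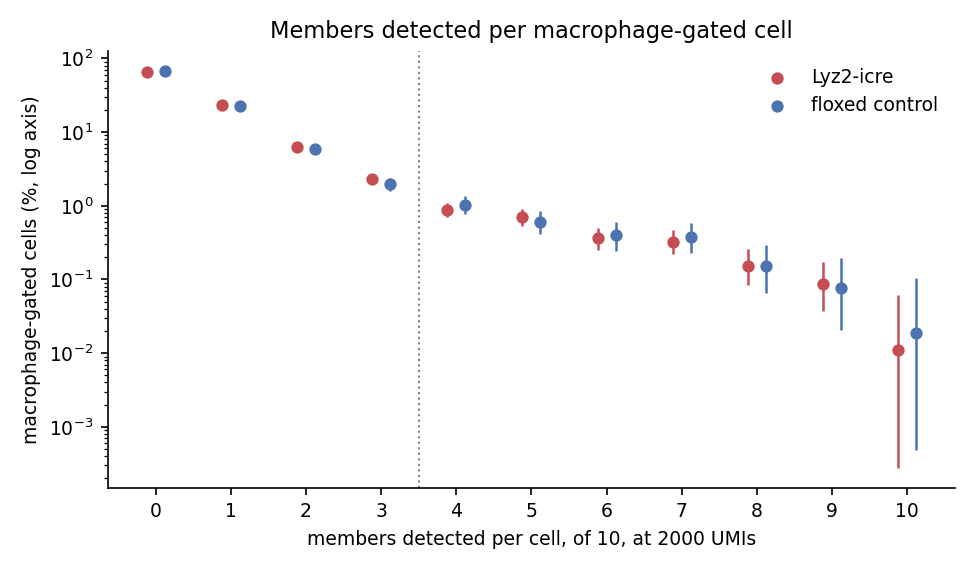
Share of macrophage-gated cells (log axis) by the number of the 10 members detected after thinning to 2000 UMIs, Lyz2-icre (red) left of floxed control (blue), with Clopper-Pearson intervals; the dotted line marks the limit of 4 members. Both libraries run down together, with 65.8% and 67.1% of cells at 0 and a long tail that ends with 1 cell each at all 10 members.

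A choice of cells by the members themselves raises those members, so the UMIs of each thinned cell were divided at random into equal parts A and B, and cells chosen in part A were read in part B. Cells with at least 3 members in part A numbered 214 of 9159 (2.34%) in the Lyz2-icre library and 117 of 5288 (2.21%) in the floxed control library. In part B their members summed to 4724 CPM in Lyz2-icre and 5615 CPM in floxed control cells, against 194 and 180 CPM in cells with no member in part A, a 24.3-fold and 31.1-fold difference. The chosen cells held 29.1% and 31.4% of the member UMIs of part B. Every member was higher in the chosen than in the remaining cells in both libraries. Cmpk2 was at 220 CPM in chosen and 2.57 CPM in remaining Lyz2-icre cells, and at 214 and 2.51 CPM in floxed control cells. Zbp1 had the smallest contrast, at 411 CPM in chosen and 87.9 CPM in remaining Lyz2-icre cells, and at 453 and 72.5 CPM in floxed control cells. Rsad2 was at 813 CPM in Lyz2-icre and 1085 CPM in floxed control chosen cells. In the remaining cells Rsad2 was at 14.2 and 16.2 CPM, values given without an interval. Under the earlier choice of 231 Lyz2-icre and 141 floxed control cells from all thinned UMIs, the Rsad2 ratio in those cells was 0.715 (0.6145 to 0.833). In the macrophages outside that choice Rsad2 was at 12.5 CPM in Lyz2-icre and 10.5 CPM in floxed control cells (1.19, 0.942 to 1.51). The Rsad2 values in the remaining macrophages thus lay in different directions under the different choices of cells. The interval of the latter ratio includes 1 and the former values have none, so no direction was shown. At 2000 UMIs Zbp1 had a UMI in 15.9% of Lyz2-icre and 13.2% of floxed control macrophages (38.95% and 40.1% before thinning), and Cmpk2 in 1.21% and 1.17%.

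**Figure D5:**
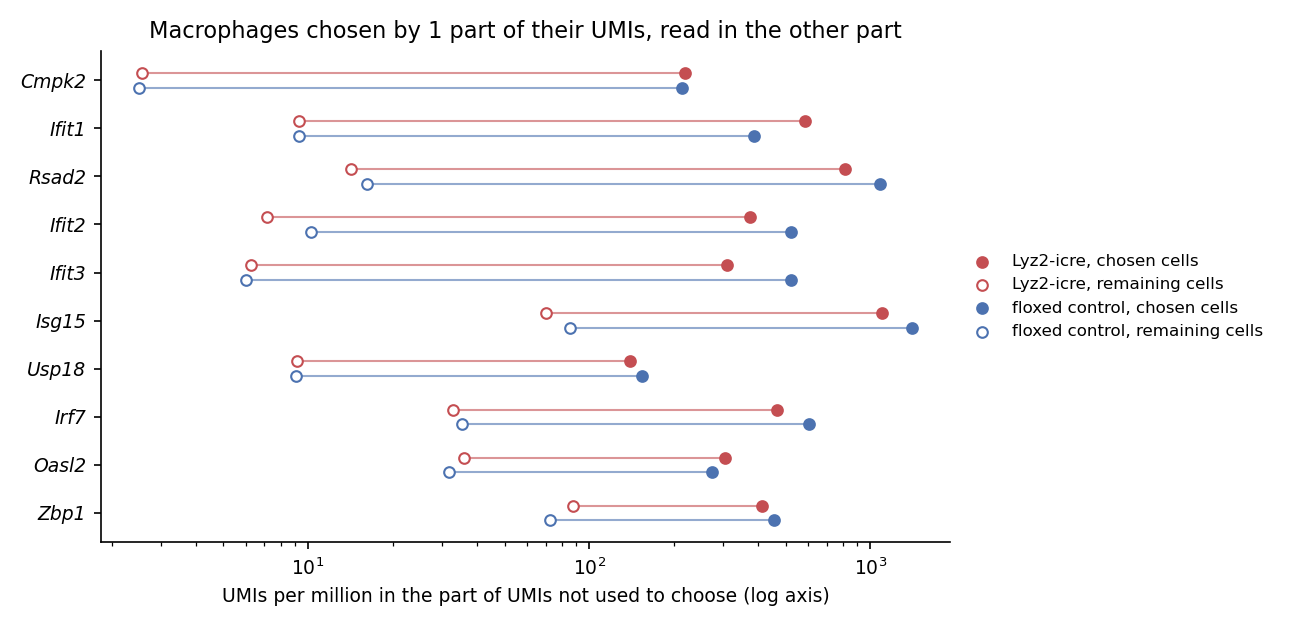
CPM of each member, on a log axis, in the part of the UMIs not used to choose the cells, for macrophages with at least 3 members in the other part (filled) and the remaining macrophages (open), Lyz2-icre (red) above floxed control (blue). As a fold the gap is widest for Cmpk2 in Lyz2-icre cells (220 against 2.57 CPM) and for Ifit3 in floxed control cells (521 against 5.995 CPM), and narrowest for Zbp1 in both (411 against 87.9 CPM and 453 against 72.5 CPM).

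The spread of single members over cells gave a similar picture. The Fano factor (variance over mean of thinned UMIs, 1 for a gene spread evenly by chance) was 4.44 for Rsad2 in Lyz2-icre and 5.96 in floxed control macrophages, and only 10 and 8 genes of the 6828 and 6928 in the compared range of mean level had higher ones. Isg15 (2.73 and 2.41), Ifit1 (2.73 and 2.62) and Ifit3 (2.39 and 2.46) followed. Zbp1 (1.26 and 1.21), Oasl2 (1.19 and 1.21) and Usp18 (1.18 and 1.24) were closer to the 95th percentile of that range, which was 1.13 in the Lyz2-icre library and 1.17 in the floxed control library. Between pairs of members the correlation over thinned cells, which share library and depth, was at most 0.459 in Lyz2-icre macrophages (Ifit1 with Ifit2) and 0.585 in floxed control macrophages (Rsad2 with Cmpk2, the head-to-head pair). The lowest was 0.109 for Usp18 with Zbp1 in Lyz2-icre cells and 0.0712 for Zbp1 with Cmpk2 in floxed control cells.

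Macrophages with 4 or more members carried macrophage markers at levels near those of the others. Both groups had passed the macrophage gate on these same markers, so near levels were largely set in advance. Summed macrophage markers were at 22504 CPM in Lyz2-icre and 23368 CPM in floxed control cells with 4 or more members, beside 24587 and 25603 CPM in those with 0 or 1, and C1qa was at 4934 and 4698 CPM, beside 5034 and 4745 CPM. The monocyte marker Ly6c2, which interferon can also induce, was at 201 and 176 CPM in Lyz2-icre and floxed control cells with 4 or more members, against 30.6 and 18.1 CPM. All 6 monocyte markers together were at 1218 and 1139 CPM, against 835 and 956 CPM, and whether monocyte character goes with the members was not tested. The 7 markers of plasmacytoid dendritic cells together were at 195 and 213 CPM, against 135 and 156 CPM, and their part in the result was not tested. Siglech, the defining gene among them, was at 0 in Lyz2-icre and 0.694 CPM in floxed control cells with 4 or more members, against 0.0461 and 0.096 CPM. Their median depth before thinning was 6903 UMIs in the Lyz2-icre library and 9654 in the floxed control library, against 7238 and 10270 UMIs. Female cells made up 75.1% and 73.0% of the sexed cells with 4 or more members, beside 74.4% and 71.7% of those with 0 or 1.

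Other interferon-stimulated genes accompanied the members cell by cell. Of a list of 50 further such genes, 39 reached 10 CPM over all macrophages of both libraries. On the log2(CPM + 5) scale 38 of these were over 2-fold higher in macrophages with 4 or more members than in those with 0 or 1 in both libraries, all but Pnpt1, against 1.75% of the 7276 genes at that level. Among the 2664 genes at 50 CPM or more in the cells with 4 or more members, of which 4.39% passed 2-fold, the 10 non-members with the largest difference were Mx1, Oasl1, Oas3, Ifit3b, Ifi206, Slfn5, Isg20, Ifi205, Ifi213 and Rtp4, of which only Ifi206 was not on that list. Mx1, an antiviral GTPase, was at 188 CPM in Lyz2-icre cells with 4 or more members and 4.80 CPM in those with 0 or 1, and at 219 and 4.55 CPM in floxed control cells. Of 12 genes of the interferon-gamma response at 10 CPM 7 were over 2-fold, namely Cxcl10, Irgm1, Igtp, Gbp5, Iigp1, Gbp3 and Gbp2. Cxcl10, which both interferon types induce, was at 2216 and 387 CPM in Lyz2-icre cells with 4 or more and 0 or 1 members, and at 2013 and 313 CPM in floxed control cells. Cxcl9, a typical gamma target, differed less, at 1350 and 805 CPM in Lyz2-icre cells and 1279 and 605 CPM in floxed control cells. Ciita was lower in the cells with 4 or more members in both libraries, at 83.9 and 114 CPM in Lyz2-icre and 77.0 and 93.6 CPM in floxed control cells. Of 8 genes of the tumour necrosis factor and NF-kappaB list only the chemokine gene Ccl4 passed 2-fold, at 998 and 373 CPM in Lyz2-icre cells and 1920 and 770 CPM in floxed control cells.

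None of the 3 pathway lists around the members held a called gene in macrophages. Of all 7909 genes at 10 CPM in this gate 0.367% were called higher and 0.923% lower, so counts of 0 say little about lists of this size. Of the 50 further interferon-stimulated genes 41 reached 10 CPM and 0 were called, with a median log2 ratio of 0.07 beside -0.02 over all genes. The highest were Dtx3l (0.32), Oas3 (0.26) and Trim30a (0.25), and the lowest Trim25 (-0.26), Slfn5 (-0.19) and Slfn8 (-0.19). Of the 10 receptor and signalling genes 0 were called. The feedback inhibitor Socs1 was at 25.5 CPM in Lyz2-icre and 17.7 CPM in floxed control macrophages (log2 0.43), and the kinase gene Jak1 had a log2 ratio of 0.07. Irf3 (-0.14), Socs3 (-0.13) and the receptor chain Ifnar1 (-0.11) were lowest. Of the 15 sensors and adaptors 13 reached 10 CPM and 0 were called, between Sting1, which relays cytosolic DNA (0.26), and the RNA receptor Tlr7 (-0.27). The 12 interferon-gamma response genes had a median of 0.26 with 1 called (Iigp1, 142 CPM in Lyz2-icre and 88.96 CPM in floxed control macrophages), and the 8 genes of the tumour necrosis factor list a median of -0.64 with 5 called lower (Ccl4, Ccl3, Tnf, Il1a and Nfkbia). Ccl4 was at 406 CPM in Lyz2-icre and 810.0 CPM in floxed control macrophages.

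Interferon ligands were rare. Ifnb1, which encodes interferon-beta, had 54 UMIs in 35 of 13915 Lyz2-icre cells and 146 UMIs in 93 of 8724 floxed control cells, or 0.550 and 1.66 CPM (ratio 0.331, 0.238 to 0.456). Most lay in macrophages, with 44 UMIs in 30 Lyz2-icre cells and 95 UMIs in 66 floxed control cells (0.593 and 1.61 CPM, ratio 0.367, 0.251 to 0.530). Macrophages made up 72.8% of Lyz2-icre and 64.45% of floxed control cells, and their Ifnb1 level was close to that over all cells. The ratio was 0.422 (0.233 to 0.741) in female and 0.282 (0.124 to 0.584) in male macrophages. These levels are under the 10 CPM needed for a call. A macrophage held at most 5 of these UMIs in either library, and cells left out as mixed held 2 Lyz2-icre and 31 floxed control UMIs. Macrophages with an Ifnb1 UMI had median depths of 7583 UMIs in the Lyz2-icre library and 12952 in the floxed control library. Ifnb1-positive macrophages had 2524 CPM of members in the Lyz2-icre library and 798 CPM in the floxed control library, beside 386 and 389 CPM over all macrophages, and 11 of 30 and 12 of 66 of them had 4 or more members before thinning. Of the 13 interferon-alpha genes listed only Ifna2 was seen, with 3 UMIs in the Lyz2-icre library and 1 in the floxed control library. Ifnk had 7 and 8 UMIs, and Ifnab, Ifne and Ifnz had none. Plasmacytoid dendritic cells held no UMI of any ligand among their 16 and 19 cells.

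The largest difference between the libraries was in type 2 conventional dendritic cells (cDC2 gate, with Cd209a, Mgl2, Clec10a, Flt3, Zbtb46 and Ccl17). The members summed to 680 CPM (627 to 736) in 131 Lyz2-icre cells and 195 CPM (174 to 219) in 152 floxed control cells, a ratio of 3.48 (3.02 to 4.01). Of the 10 members 9 reached 10 CPM, Ifit1, Ifit2, Ifit3 and Rsad2 only through the Lyz2-icre library, and all 9 were called higher, against 3.52% of 8180 genes called higher and 4.06% called lower in this gate. The 5 that reached 10 CPM in both libraries were Isg15, Zbp1, Irf7, Oasl2 and Usp18. Isg15 was at 205 CPM in Lyz2-icre and 63.4 CPM in floxed control cells (3.24, 2.51 to 4.19). Zbp1 was at 121 and 42.5 CPM (2.86, 2.08 to 3.96), and Irf7 at 59.1 and 20.9 CPM (2.83, 1.78 to 4.55). Usp18 was at 29.0 and 10.8 CPM (2.69, 1.39 to 5.36), and Oasl2, the least different, at 63.5 and 37.7 CPM (1.68, 1.14 to 2.48).

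Few cDC2 cells carried much of this. The 3 cells with most member UMIs held 41.5% of them in the Lyz2-icre library and 19.0% in the floxed control library, and without the 3 cells of each the sums were 412 and 161 CPM (ratio 2.56). Without them 6 of the 10 members were still called, Isg15, Ifit1, Ifit3, Rsad2, Irf7 and Zbp1, against 3.2% of 8100 genes called higher and 3.93% lower without these cells, and Ifit2, Oasl2 and Usp18 no longer were. Of the 6, Ifit1, Ifit3 and Rsad2 again reached 10 CPM only through the Lyz2-icre library. Rsad2 was the most concentrated, at 72.4 CPM in Lyz2-icre and 2.70 CPM in floxed control cells (65 and 4 UMIs), and at 19.6 and 2.06 CPM without those cells. At 2000 UMIs at least 4 members were detected in 5 of 125 Lyz2-icre cells (4.0%, 1.31 to 9.09) and in 2 of 147 floxed control cells (1.36%, 0.165 to 4.83), and these shares overlapped. Cells with a UMI of no member made up 54.4% and 71.4%. In female cells the sums were 624 CPM in 87 Lyz2-icre and 166 CPM in 118 floxed control cells (3.77, 3.16 to 4.51). In male cells they were 323 and 303 CPM in 21 cells each (1.07, 0.714 to 1.58). Cells without a sex call are in neither ratio. All cDC2 cells held 610 Lyz2-icre and 290 floxed control member UMIs, female cells 374 and 192, and male cells 47 and 62. The difference could therefore not be placed in 1 sex, and the difference between sexes was not tested. Counting cells that also passed another gate brought the ratio of the pooled sums to 2.24. Of the 50 further interferon-stimulated genes 45 reached 10 CPM in cDC2 cells, 20 were called higher and 0 lower, with a median log2 ratio of 0.59 beside 0.01 over all genes. Of the 20, Oasl1, Ifi213, Ddx60 and Ifit1bl1 reached 10 CPM only through the Lyz2-icre library. This count includes the 3 cells with most member UMIs of each library and was not repeated without them. Among the 20, Ifi205, of the interferon-inducible PYHIN family, was at 90.2 CPM in Lyz2-icre and 24.3 CPM in floxed control cDC2 cells (3.72, 2.48 to 5.67). The RNA sensor gene Ifih1 was at 56.8 and 24.3 CPM (2.34, 1.499 to 3.69), and the exonuclease gene Isg20 at 51.2 and 19.5 CPM (2.62, 1.61 to 4.33). Cxcl10 was the only one of the 12 interferon-gamma response genes called, at 393 CPM in Lyz2-icre and 257 CPM in floxed control cDC2 cells (1.53).

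Monocytes and neutrophils had higher sums in the Lyz2-icre library, but with few members called. In monocytes the ratio of sums was 1.23 (1.15 to 1.32), and 0 of 10 members were called, with 3.86% of 7857 genes called higher and 3.7% lower. Zbp1 was at 294 CPM in Lyz2-icre and 207 CPM in floxed control monocytes (1.42, 1.22 to 1.66), and Isg15 at 308 and 243 CPM (1.27, 1.10 to 1.47). Cells mattered here too, since 3 floxed control monocytes held 31.0% of that library's member UMIs and 3 Lyz2-icre monocytes 14.3%. Without these the sums were 1100 and 726 CPM (1.51), and Isg15, Ifit1 and Rsad2 were called higher, with 4.03% of 7823 genes called higher and 3.8% lower without these cells. In female cells alone the ratio was 0.986 (820 Lyz2-icre and 1075 floxed control member UMIs), and in male cells 1.36 (469 and 212 UMIs). Monocytes without a sex call are in neither ratio, while the pooled sums, of 1937 and 1404 UMIs, include them. At 2000 UMIs at least 4 members were found in 10.6% (7.55 to 14.3) of 350 Lyz2-icre and 8.70% (5.05 to 13.7) of 184 floxed control monocytes. Of the 50 further interferon-stimulated genes 48 reached 10 CPM, 11 were called higher and 1 lower (Herc6, 24.3 CPM in Lyz2-icre and 41.8 CPM in floxed control cells), with a median log2 ratio of 0.31 beside 0.02 over all genes. Of the 11, Ifit1bl1 reached 10 CPM only through the Lyz2-icre library (24.9 CPM in Lyz2-icre and 8.80 CPM in floxed control cells). Of the 12 interferon-gamma response genes 10 were called higher in monocytes, with a median log2 ratio of 0.82, among them Cxcl9 at 619 CPM in Lyz2-icre and 152 CPM in floxed control cells (4.08, 3.504 to 4.76) and the transcription factor gene Irf1 at 251 and 108 CPM (2.31).

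In neutrophils the ratio of sums was 1.46 (1.253 to 1.69), and 2 of 10 members were called higher (Rsad2 and Oasl2), with 4.22% of 7339 genes called higher and 1.39% lower. The 65 Lyz2-icre neutrophils were shallow, with a median of 1048 UMIs against 2455 UMIs in the floxed control library, and 3 of them held 33.3% of the member UMIs. Without the 3 top cells of each library the ratio was 1.245, and within sex it was 0.873 in female cells (5 and 48 cells) and 7.69 in male cells (9 and 4 cells). Of the 50 further interferon-stimulated genes 42 reached 10 CPM, 7 were called higher and 0 lower, with a median log2 ratio of 0.46 beside 0.19 over all genes. The Lyz2-icre neutrophils held 71505 UMIs in all, where 1 UMI is 13.99 CPM, so 1 UMI in that library was enough to reach 10 CPM. Of the 7, Herc6 rested on 6 Lyz2-icre and 8 floxed control UMIs. No Lyz2-icre neutrophil reached 2000 UMIs, so their shares of cells were not compared; among 124 floxed control neutrophils 12.1% (6.93 to 19.2) had at least 4 members.

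In the T and NK gates of at least 50 cells in both libraries the sums differed by less than 1.5-fold when cells of both sexes were pooled. In CD8 T cells the members summed to 161 CPM in 311 Lyz2-icre and 190 CPM in 248 floxed control cells (0.847, 0.702 to 1.02). Of 10 members 7 reached 10 CPM and 3 were called lower, Isg15 (29.4 and 47.9 CPM), Ifit2 (3.36 and 12.1 CPM) and Rsad2 (4.203 and 12.1 CPM), with 1.96% of 8502 genes called higher and 4.83% lower. Ifit2 and Rsad2 reached 10 CPM only through the floxed control library and rested on 4 and 5 UMIs in the Lyz2-icre library and 19 each in the floxed control library. The CD8 T ratio was 1.24 in female and 0.604 in male cells, and 1.23 with mixed cells kept. In NK cells the ratio was 0.985 (0.800 to 1.21), with 0 of 4 members at 10 CPM called (1.55% of 8340 genes higher and 4.12% lower), and its direction turned under the stricter gate (1.385, 1.07 to 1.795), with mixed cells kept (1.19, 1.02 to 1.38) and in male cells (1.245, 0.769 to 2.01). In regulatory T cells it was 1.23 (0.970 to 1.57), with Ifit1 called higher out of 9 at 10 CPM (43.1 and 16.9 CPM from 14 and 10 UMIs; 2.93% of 8974 genes higher and 2.8% lower), and in CD4 T cells 1.19 (0.859 to 1.64), with Ifit1 called higher out of 7 (65.0 and 10.4 CPM from 14 and 4 UMIs; 3.23% of 9022 genes higher and 2.72% lower). The regulatory T ratio was 1.41 (1.10 to 1.81) under the looser gate and 1.33 (1.05 to 1.69) under the stricter gate. It was 1.37 (1.12 to 1.68) with mixed cells kept, 1.10 (0.746 to 1.61) in female and 1.085 (0.343 to 3.27) in male cells. The CD4 T ratio was 0.562 with mixed cells kept, 0.955 in female cells and 3.13 (1.49 to 6.67) in 7 Lyz2-icre and 18 floxed control male cells.

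In the remaining gates few cells set the values. Migratory dendritic cells had a ratio of 1.04 (0.856 to 1.27), with Oasl2 called higher out of 8 members at 10 CPM (47.0 and 19.2 CPM; 2.73% of 7540 genes higher and 3.61% lower). The fibroblast or tumour gate had a ratio of 0.857 (0.793 to 0.925), with Ifit1 (49.1 and 101 CPM) and Ifit3 (36.2 and 62.6 CPM) called lower out of 10 members (1.86% of 9438 genes higher and 3.14% lower), and a ratio of 1.29 under the stricter gate. Type 1 dendritic cells, with 54 and 46 cells, had 423 CPM in the Lyz2-icre library and 245 CPM in the floxed control library (1.73, 1.40 to 2.14), of which 3 cells held 60.7% and 35.9%. Without these cells the sums were 178 and 174 CPM (1.02).

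Over the 22 pairs of gate and library with at least 50 cells, the non-members whose log2 level ran most closely with the summed members were Msrb1 (r = 0.93), Oas3 (0.92), Tnfaip2 (0.90), Ifit3b (0.89), H2-T24 (0.89) and Nfe2 (0.89), out of 9389 genes. The pairs share library and depth, and 1 cell type sets much of the order: without neutrophils the same values were 0.84, 0.84, 0.79, 0.79, 0.75 and 0.75. Among the members themselves Rsad2 (0.96) and Isg15 (0.96) ran closest to the sum that contains them, and Ifit2 (0.59), Zbp1 (0.62) and Usp18 (0.65) least.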

How the data were processed

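The values were raw UMI counts per gene and barcode, whole numbers in the matrices deposited by the authors for called cells. Libraries were made with the 10x Genomics 3′ kit (V3), per the labels' protocols. The submitters' processing notes name bcl2fastq 5.0.1, Cell Ranger and the build mm10, and per the file headers Cell Ranger was at version 8.0.1; the annotation release was not stated in the sources used here. Empty droplets were not used, so free RNA could not be estimated.

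Kept cells had 300 genes and 500 UMIs or more and a mitochondrial share of at most 15%, which removed 29 of 13944 Lyz2-icre and 430 of 9154 floxed control barcodes. Gates required between 2 and 4 detected markers and a summed level of the list, from 300 CPM (gamma-delta T) to 5000 CPM (macrophage). Marker lists held none of the members, but the monocyte gate required a UMI of Ly6c2, which interferon can induce. The thresholds were set after the marker distributions were seen. The monocyte gate yielded to any other, and cells passing more than 1 other gate were left out as mixed. This stood in for a doublet caller, which was not run. Tcrg-C1, Tcrg-C2 and Cd163l1 were matched by gene identifier, and Mb21d1 and Tmem173 are older names of Cgas and Sting1.

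UMIs were summed per gate and library. Intervals at 95% were exact Poisson for levels, exact conditional binomial for ratios and Clopper-Pearson for shares of cells. For shares of cells each cell was drawn down to 2000 UMIs without replacement, leaving out 1723 Lyz2-icre and 611 floxed control cells. UMIs remove most amplification copies, and intervals cover counting error only. Calls were checked on simulated counts with known changes, drawn at the depth of whole libraries with counting error only. That check does not cover gates of few cells, nor genes whose UMIs sit in few cells. The members and lists were chosen with earlier results of these data known. Named were all members, the 3 highest and 3 lowest of each pathway list in macrophages (1 of these genes is not reported here), the 6 non-members most like the sum over gates and the 10 that most accompanied the members in single cells; other genes named were chosen after their values were seen. Alternatives were filters, gates, mixed cells, sexes (Xist against Y-linked UMIs), scaling, thinning depth, seed and thresholds; leaving out cells of most member UMIs, and keeping genes by their level over all macrophages when cells with many and few members were compared, were added after the data were seen. Python 3.11.15, numpy 2.4.6, scipy 1.17.1, pandas 2.3.3 and matplotlib 3.10.9 were used.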

Additional observations from a re-analysis of the deposited data

Results flagged for a closer look

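In macrophage-gated cells Ifit3 was lower in female and higher in male cells of the Lyz2-icre library relative to the floxed control library, with ratios of 0.668 (12.2 and 18.2 CPM) and 1.245 (16.3 and 13.1 CPM). Irf7 showed the same split, with ratios of 0.865 in female cells (40.2 and 46.5 CPM) and 1.28 in male cells (50.1 and 39.0 CPM). The counting intervals lay on opposite sides of 1 in both genes. In the fibroblast or tumour gate the summed members had a ratio of 0.547 in female cells (24 Lyz2-icre and 20 floxed control cells) and 10.5 in male cells (5 and 7 cells). Most of the 243 Lyz2-icre and 167 floxed control cells of this gate had no sex call and are in neither ratio. With 1 library per genotype and an unstated number of mice of each sex, the difference between the sexes was not tested in any of these.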

How the results depend on the processing

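No paired analysis was possible because each genotype had 1 library, and no library could be left out. The macrophage sum ratio of 0.993 stayed between 0.974 and 1.055 over 11 alternatives; values that moved past its counting interval were 1.01 in male cells, 1.01 as a mean of per-cell CPM, 0.974 after thinning and 1.055 without Isg15. At a lower fold limit (5 to 4 in place of 3 to 2) 2 members were called in macrophages (Rsad2 lower, Zbp1 higher) in place of 0. The share of member UMIs in the top 10% of macrophages was 68.2% and 73.8% at 1000 UMIs in the Lyz2-icre and floxed control libraries, 60.8% at 4000 UMIs and 63.3% with another seed in the Lyz2-icre library, and 69.6% in female and 62.6% in male floxed control cells; the top 5% of cells held 49.1% and 52.3%. The share of cells with 4 or more members had ratios between 0.804 (not thinned) and 1.13 (4000 UMIs), on both sides of 1. The cDC1 sum turned to 0.681 in male cells. Of 100 recomputed member ratios in macrophages 96 kept their side of 1, and 18 moved past the counting interval of the main value. The cause of these shifts was not tested. Cmpk2 and the interferon ligands were under the 10 CPM set for calls in macrophages. With that limit lifted 0 of 10 members were called, and the ratio of Cmpk2 was 0.947 (0.832 to 1.08). The ligands were too sparse to be called at this depth.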

Other observations

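Cells left out as mixed had member levels close to those of the whole libraries, at 397 CPM in the Lyz2-icre and 376 CPM in the floxed control library, and ungated cells stood at 320 and 409 CPM. Gamma-delta T cells had 406 CPM in 48 Lyz2-icre and 281 CPM in 71 floxed control cells, mast cells or basophils 320 CPM in 15 and 140 CPM in 39 cells, and B cells 335 CPM in 6 and 150 CPM in 7 cells. In each of these gates 3 cells held at least 29.7% of the member UMIs.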
